A study of Mus musculus with 15 samples.

Results

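Serine/threonine protein phosphatases of the PPP family are built from a small set of catalytic subunits and a much larger set of regulatory subunits. The genes described here were those whose mouse symbol starts with Ppp1, Ppp2, Ppp3, Ppp4, Ppp5 or Ppp6, without Ppp1r15a and Ppp1r15b, read from probe sets with a single symbol. They were 76 of the 19452 genes on the array with a single symbol, 11 of them catalytic (a c after the family number) and 65 regulatory (an r), and a gene with several probe sets was represented by the one brightest on average at 0 min. The rule itself used no decay measurement, although the genes were chosen with earlier results of these data known.

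The catalytic subunits of PP1, PP2A, calcineurin (the Ppp3 genes), PP4, PP5 and PP6 remove phosphate from serine and threonine. PP1 has little choice of substrate by itself, and each of its regulatory partners directs it to a place or a substrate or inhibits it. PP2A is assembled from a catalytic subunit, a scaffold and an exchangeable B subunit, calcineurin is activated by calcium through calmodulin and its B subunit, and PP4 and PP6 have regulatory subunits of their own. In muscle, a PP1 complex dephosphorylates myosin light chain, and calcineurin acts on NFAT transcription factors during differentiation.

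The RNA came from C2C12 (LKO1) cells, a stable mouse myoblast line that carries an empty lentivirus vector and was kept in puromycin below confluency. All samples had spent 30 min in 8 µg/mL actinomycin D, which blocks transcription, before the clock was started, so the 0 min samples were not untreated. Total RNA was taken at the start of the clock and after 10, 50, 110 and 230 min, in 3 replicate time courses, with 1 Affymetrix Mouse Gene 1.0 ST array for each of the 15 samples. Whether the time courses were separate cultures is not given in the sources used here, and the p-values measure only the spread among these samples, part or all of which may be technical. Of 7 myoblast markers, 7 lay above the level split defined below (0 min means of 5.46 to 42.3), against 0 of 4 adipocyte, 0 of 3 endothelial, 0 of 3 neuronal, 1 of 3 macrophage and 4 of 9 myotube markers.

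Each value is the ratio of a probe set to the 5th percentile of its own array, so that 1.00 is about the dimmest signal. The level split was the median, 2.08, of the geometric means of all 25175 probe sets over the 15 arrays. Ratios fell over the whole array with time, with a 75th percentile of 7.80 to 9.81 at 0 min and 2.89 to 4.63 at 230 min. There were 2 arrays that stood apart: that of replicate 1 at 110 min had a lower 75th percentile (3.90) than its own 230 min array (4.63), and that of replicate 2 at 230 min was the lowest of all (2.89). Decay was therefore described in a pair of ways: as the slope of the deposited log2 ratio against time, and as a relative slope after subtraction of each array's median log2 ratio over the probe sets above the split. Because the array-wide fall is in the deposited slope, it is an apparent decay, and the relative slope says only whether a transcript fell faster or slower than the reference chosen.

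All 11 catalytic subunits and 40 of the 65 regulatory subunits lay above the split. Of these 51 genes, 50 fell (limma linear trend, Benjamini-Hochberg adjusted p under 0.05 over all probe sets) and 0 rose (also 0 at an unadjusted p under 0.05), in an experiment where 96.1% of the 12587 probe sets above the split fell and 0.0159% rose, so the count is near the background. The exception was Ppp3r1 (adjusted p = 0.10). The median slope of the 51 genes was -0.28 log2 per hr, beside -0.25 for all probe sets above the split, and 33 of the 51 were steeper than that overall median. A median of 51.7% of the 0 min ratio was left at 230 min (54.4% for all probe sets above the split). The range was wide, from -0.75 log2 per hr for Ppp1r10 to -0.12 for Ppp3r1.

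**Figure D1:**
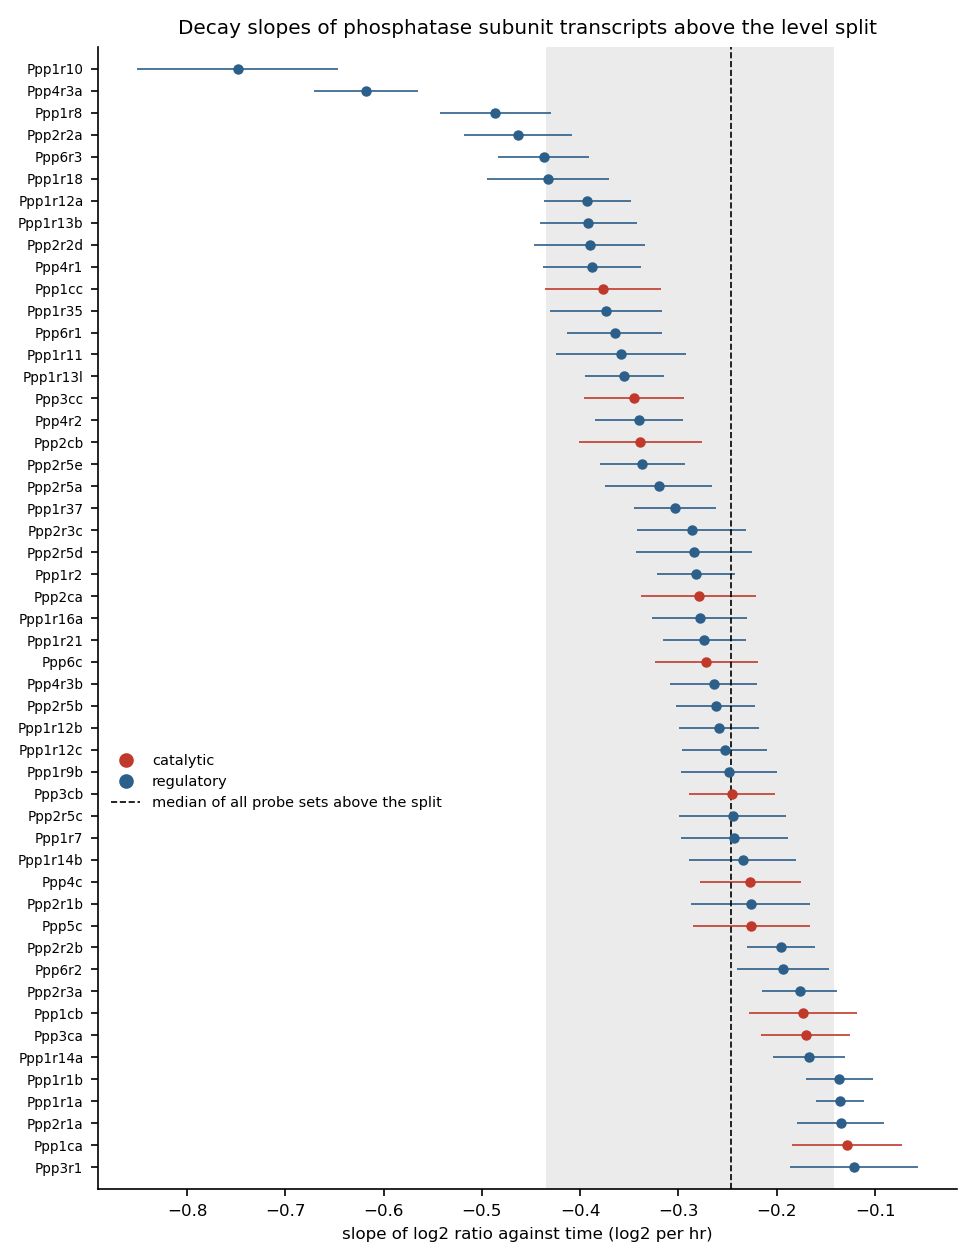
Slope of the log2 ratio against time (log2 per hr, horizontal axis, deposited scale) of the 51 phosphatase subunit genes above the level split, with the standard error of the limma fit over 15 arrays (bars), ranked; red points are catalytic and blue points regulatory subunits, and the dashed line and grey band mark the median and the 10th to 90th percentile over all probe sets above the split. Ppp1r10 (-0.75) and Ppp4r3a (-0.62) lie farthest to the left, and no red point lies left of -0.38.

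On the relative scale, 9 of the 51 genes were faster and 19 slower than the reference, where 15.1% of all probe sets above the split were faster and 49.3% slower. The zero of that scale depends on the reference. With each array centred on the median deviation of these probe sets from their own means, the same genes split into 19 faster and 9 slower (25.1% and 23.1% of all probe sets above the split), and with centring on the median of all probe sets into 29 and 0 (42.1% and 3.11%). The median relative slope of all probe sets above the split was 0.071, 0.011 and -0.065 log2 per hr under these references. The 9 faster genes were called faster under all 3 references, as the order of the references dictates: Ppp1r10, Ppp4r3a, Ppp1r8, Ppp2r2a, Ppp6r3, Ppp1r18, Ppp1r12a, Ppp1r13b and Ppp4r1. All 9 were regulatory subunits. The 9 genes called slower under the first and the second reference were Ppp3r1, Ppp1ca, Ppp2r1a, Ppp1r1a, Ppp1r1b, Ppp1r14a, Ppp3ca, Ppp1cb and Ppp6r2, and 0 of the 51 genes were called slower under the third (also 0 at an unadjusted p under 0.05). Without the 2 arrays that stood apart, 49 genes fell, 7 were faster and 21 slower. Shares over all probe sets are not given for that fit, so the change may be array-wide.

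The 3 catalytic subunits of PP1 are near-identical enzymes with separate genes, and their transcripts differed in slope. The Ppp1cc ratio went from 74.5 at 0 min through 65.6, 67.8 and 23.8 to 30.3 at 230 min in replicate 1. It went from 54.4 through 45.7, 53.8 and 28.7 to 14.6 in replicate 2, and from 60.5 through 56.5, 63.7 and 44.0 to 31.5 in replicate 3. Every 230 min value was below every 0 min value, and the fall came after 50 min. The slope was -0.38 ± 0.059 (SE) log2 per hr, with 39.9% ± 12.6 (SD, n = 3) of the ratio left at 230 min, and the relative late step from 50 to 230 min was -0.35 log2 (adjusted p = 0.032, limma).

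The Ppp1ca ratio went from 134.9 through 101.3, 115.7 and 59.1 to 99.5 in replicate 1, from 101.5 through 114.0, 133.7 and 87.0 to 56.9 in replicate 2, and from 102.4 through 100.4, 120.0 and 108.0 to 100.1 in replicate 3. The 230 min values were all below the 0 min values, in replicate 3 only just, while replicate 2 ended lowest. The Ppp1ca slope was -0.13 ± 0.056 (SE; adjusted p = 0.048), with 75.8% ± 20.9 left, and its relative slope of 0.19 was slower than the reference (adjusted p = 3.19e-05). Ppp1cb lay near it, with a slope of -0.17 ± 0.055 and 67.1% ± 11.1 left, and was slower as well (adjusted p = 0.00079). Ppp1cc was steeper than Ppp1ca by 0.27, 0.23 and 0.24 log2 per hr in the 3 time courses (mean difference of -0.25 ± 0.020, SD), and steeper than Ppp1cb by a mean difference of -0.20 ± 0.032. Ppp1cb and Ppp1ca differed by -0.044 ± 0.037, which is within 2 SD. A second Ppp1cc probe set gave -0.37, close to the first.

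The PP2A catalytic subunits Ppp2ca and Ppp2cb had slopes of -0.28 ± 0.058 and -0.34 ± 0.062 log2 per hr. Their ratios left at 230 min were 53.4% ± 19 and 43.8% ± 15. Ppp2cb was the steeper in all 3 time courses, by a mean difference of -0.059 ± 0.037, which is within 2 SD. Neither was called faster or slower on the relative scale (adjusted p = 0.38 and 0.58), although without replicate 2 Ppp2ca was called slower (0.092, adjusted p = 0.039). The scaffold, which holds the catalytic and the B subunit together, was shallower. The Ppp2r1a ratio went from 80.4 through 71.5, 65.8 and 39.6 to 56.2 in replicate 1, from 49.8 through 53.5, 62.9 and 42.9 to 30.7 in replicate 2, and from 59.3 through 56.2, 66.5 and 56.6 to 53.2 in replicate 3. The 0 min and 230 min ranges overlapped, with replicate 2 lowest at the end. The slope was -0.14 ± 0.045, and 91.7% of all probe sets above the split were steeper. Ppp2r1a was slower on the relative scale (0.18, adjusted p = 7.19e-06), and so was Ppp2r1b (0.090, adjusted p = 0.020, lost without replicate 3 at 0.059 and an adjusted p of 0.26). Ppp2r1b was steeper than Ppp2r1a by 0.094, 0.11 and 0.071 in the 3 time courses.

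**Figure D2:**
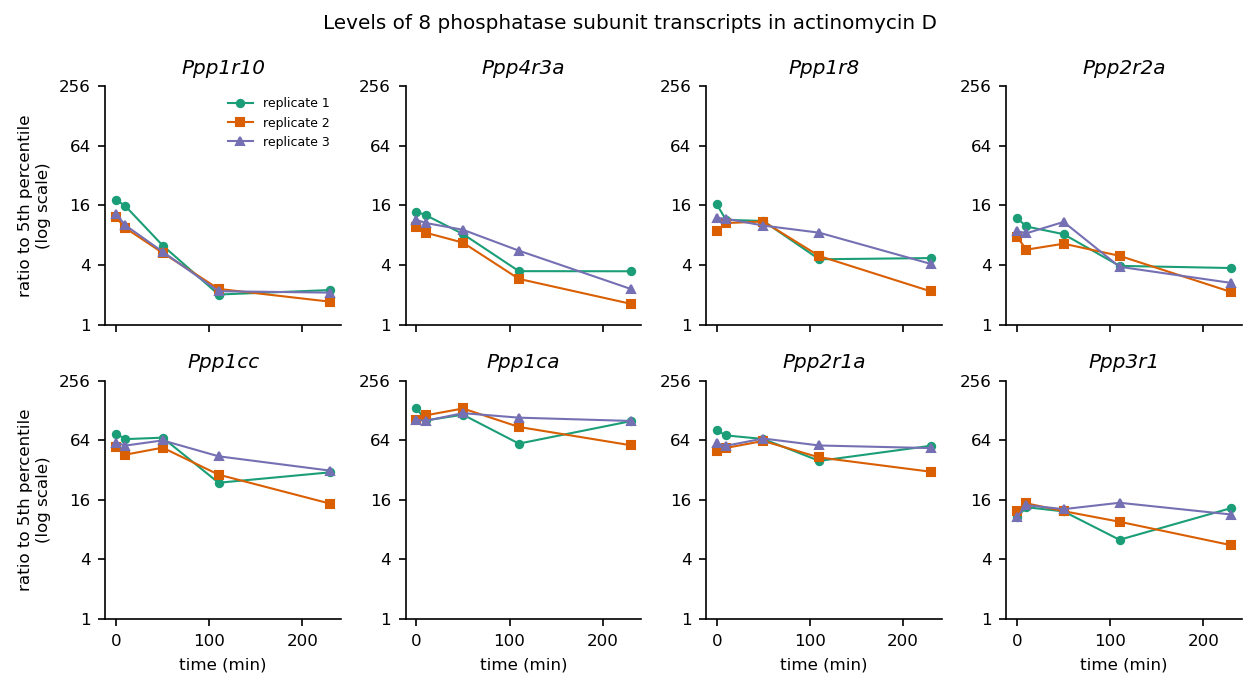
Ratio to the 5th percentile of the array (vertical axis, log scale) against time in min after the 30 min treatment (horizontal axis) for 8 subunit transcripts, 1 line for each of the 3 replicate time courses. Ppp1r10 is near 2 by 110 min in all 3 lines, whereas the 0 and 230 min values of Ppp2r1a and of Ppp3r1 overlap.

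The PP2A B subunits (Ppp2r2), which direct PP2A to substrates that include cell cycle proteins, held a steep pair. The Ppp2r2a ratio went from 11.9 through 9.77, 8.17 and 3.91 to 3.72 in replicate 1, from 7.70 through 5.70, 6.55 and 4.94 to 2.13 in replicate 2, and from 8.79 through 8.34, 10.9 and 3.83 to 2.63 in replicate 3. All 230 min values were below all 0 min values, and replicate 3 was highest at 50 min. Ppp2r2a had a slope of -0.46 ± 0.055 and a relative slope of -0.15 (adjusted p = 0.0024), with 29.6% ± 1.84 left. Ppp2r2d followed with -0.39 ± 0.057 and Ppp2r2b with -0.20 ± 0.034. Ppp2r2b was called slower (0.12, adjusted p = 0.0067), but not without replicate 1 (0.080, adjusted p = 0.060). Ppp2r2a was steeper than Ppp2r2b by -0.27 ± 0.12, but Ppp2r2b lay near the split (0 min mean of 2.95), where the floor of the ratios limits how far a value can fall.

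The 5 B prime subunits (Ppp2r5), which bind a short motif in their partners, had slopes from -0.24 for Ppp2r5c to -0.34 for Ppp2r5e. Of these, 0 were faster (also 0 at an unadjusted p under 0.05) and 1, Ppp2r5c, was slower (adjusted p = 0.037, limma), where 15.1% and 49.3% of all probe sets above the split were. Without replicate 2 or replicate 3 the Ppp2r5c call was lost (adjusted p = 0.050 and 0.40). Only 1 of their 10 pairs, Ppp2r5e and Ppp2r5b (-0.075 ± 0.026), differed by more than 2 SD over the time courses. The 4 probe sets of Ppp2r5c spread from -0.29 to -0.15, more widely than the 5 genes. Its 2 shallowest probe sets (-0.17 and -0.15) were dim, with 0 min means of 2.56 and 3.20, against 7.60 and 15.8 for the others. The 4 probe sets of Ppp2r5a ran from -0.32 to -0.28. Of the B double prime subunits, which bind calcium, Ppp2r3c had -0.29 ± 0.056 and Ppp2r3a -0.18 ± 0.038, and the sign of their difference varied between time courses. Ppp2r3a was called slower (0.14, adjusted p = 0.0015), but not without replicate 2 (0.095, adjusted p = 0.060).

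Among the calcineurin genes, the 3 catalytic subunits had slopes of -0.35 ± 0.051 (Ppp3cc), -0.25 ± 0.044 (Ppp3cb) and -0.17 ± 0.045 (Ppp3ca). Ppp3ca was slower on the relative scale (0.15, adjusted p = 7.45e-05) and Ppp3cb as well (0.072, adjusted p = 0.025), while Ppp3cc was not called (adjusted p = 0.41). Without replicate 2 or without replicate 3 the Ppp3cb call was lost (adjusted p = 0.11 in both). Ppp3cb was steeper than Ppp3ca by -0.075 ± 0.020, whereas the larger difference between Ppp3cc and Ppp3ca varied more, from 0.054 to 0.25 steeper, and stayed within 2 SD.

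The calcium-binding B subunit Ppp3r1 had the shallowest slope of the 51 genes, -0.12 ± 0.065. Its ratio went from 10.7 through 13.5, 12.2 and 6.32 to 13.2 in replicate 1, from 12.3 through 14.8, 12.3 and 9.61 to 5.57 in replicate 2, and from 10.8 through 14.1, 12.9 and 14.9 to 11.4 in replicate 3. Replicates 1 and 3 ended above their start and replicate 2 below it, so 91.4% ± 40.9 was left. The relative slope of 0.20 ± 0.045 was slower than the reference (adjusted p = 0.00052), and 94.2% of all probe sets above the split were steeper on the deposited scale. The other B subunit gene, Ppp3r2, lay at the floor (0 min mean of 1.03 ± 0.076).

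The catalytic subunits of PP4, PP5 and PP6 lay close together. Ppp4c had -0.23 ± 0.051, Ppp5c, whose product carries its own protein-interaction repeats, -0.23 ± 0.059, and Ppp6c -0.27 ± 0.052. No pair of the 3 differed by more than 2 SD over the time courses. Ppp4c and Ppp5c were slower on the relative scale (adjusted p = 0.011 and 0.019), both calls were lost without replicate 3 (adjusted p = 0.13 and 0.25), and Ppp6c was not called (adjusted p = 0.15).

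**Figure D3:**
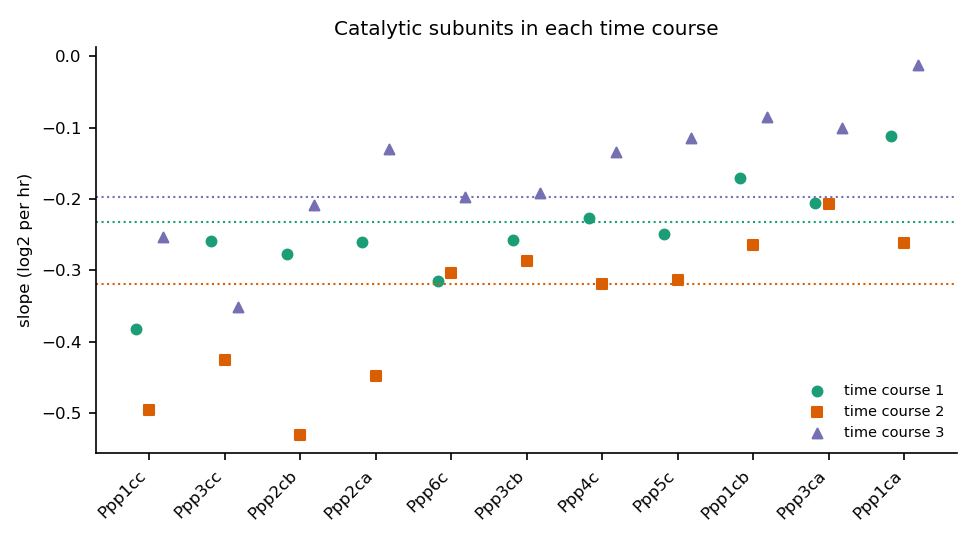
Slope of the log2 ratio against time (log2 per hr, vertical axis) of each of the 11 catalytic subunits in each of the 3 time courses (symbols), ordered by the slope over all arrays; dotted lines of the same colours are the median slopes of all probe sets above the split in that time course (-0.23, -0.32 and -0.20). Ppp1cc, Ppp2cb and Ppp3cc lie below the dotted line, and Ppp1ca, Ppp1cb and Ppp3ca lie above it, in each time course.

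Of the regulatory subunits of PP4, 4 lay above the split, with slopes of -0.62 to -0.26. Ppp4r3a and Ppp4r3b encode related subunits that join Ppp4c and Ppp4r2 in a complex. The Ppp4r3a ratio went from 13.8 through 12.7, 8.20 and 3.46 to 3.45 in replicate 1, from 9.71 through 8.46, 6.71 and 2.89 to 1.62 in replicate 2, and from 11.4 through 10.6, 9.05 and 5.57 to 2.29 in replicate 3. The 110 and 230 min values were below all earlier ones. The slope was -0.62 ± 0.053 (adjusted p = 7.93e-07), 20.6% ± 4.21 was left, and the relative slope was -0.30 (adjusted p = 1.8e-06). An exponential curve fitted to each time course gave half-lives of 70.7, 77.1 and 107 min (mean of 85.0 ± 19.6 min, SD), reliable in 3 of 3 by the study's criteria of a fit p under 0.05 and a 95% interval narrower than 2 times the half-life. With each array first divided by its median above the split, the array-wide fall was taken out, along with any decay of the median transcript. The fitted time then describes only the fall beyond that median, with a mean of 184.5 ± 29.5 min, reliable in 2 of 3.

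Ppp4r3b had a slope of only -0.26 ± 0.044. Its ratio went from 14.1 through 11.7, 9.87 and 5.88 to 7.77 in replicate 1, from 10.0 through 9.29, 10.2 and 7.24 to 4 in replicate 2, and from 12.5 through 10.6, 12.1 and 9.53 to 6.60 in replicate 3. Ppp4r3a was steeper by 0.33, 0.34 and 0.39 log2 per hr in the 3 time courses (-0.35 ± 0.028), larger than its spread. Ppp4r1 (-0.39 ± 0.050) and Ppp4r2 (-0.34 ± 0.045) lay between the related pair. Ppp4r1 was called faster (-0.071, adjusted p = 0.029), a call lost when any single replicate was left out (adjusted p of 0.055 to 0.13).

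The 3 regulatory subunits of PP6 spread likewise. The Ppp6r3 ratio went from 27.1 through 25.4, 18.5 and 9.56 to 9.23 in replicate 1, from 18.7 through 20.2, 21.6 and 12.04 to 5.36 in replicate 2, and from 24.0 through 23.1, 23.9 and 14.4 to 9.46 in replicate 3. All values at 110 and 230 min were below those of the earlier times. Ppp6r3 fell with a slope of -0.44 ± 0.046 (relative slope of -0.12, adjusted p = 0.00061), Ppp6r1 with -0.36 ± 0.049 and Ppp6r2 with -0.19 ± 0.047. Ppp6r2 was slower than the reference (0.12, adjusted p = 0.00026). Of all 65 pairs of genes within role groups, Ppp6r3 and Ppp6r2 had the smallest spread of their difference, at 0.25, 0.24 and 0.24 log2 per hr.

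The steepest of the subunit genes described here was Ppp1r10, which encodes PNUTS, a nuclear protein that targets PP1 to chromatin and RNA polymerase II. The Ppp1r10 ratio went from 18.2 through 15.7, 6.28 and 2.01 to 2.23 in replicate 1, from 12.1 through 9.43, 5.29 and 2.29 to 1.70 in replicate 2, and from 13.0 through 10.0, 5.43 and 2.17 to 2.10 in replicate 3. By 110 min all 3 time courses were near 2, with little further change to 230 min. The slope was -0.75 ± 0.10 (adjusted p = 2.3e-05), steeper than all but 0.556% of the probe sets above the split, and the relative slope was -0.43 ± 0.077 (adjusted p = 4.69e-05). The half-lives were 34.4, 47.0 and 44.1 min (mean of 41.8 ± 6.59 min, SD), reliable in 3 of 3. Division of each array by its median above the split gave 71.4 ± 15.5 min for the fall beyond that median, reliable in 0 of 3. A straight line on log2 values gave 80.6 ± 7.28 min, also reliable in 0 of 3. A curve with a constant floor gave 28.8 ± 2.16 min with no interval.

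Ppp1r10 was also the only one of the 51 genes called lower at 50 than at 0 min on the relative scale (-1.17 log2, adjusted p = 0.00018, lost without replicate 3), where 1.29% of the probe sets above the split were called lower. From 50 to 230 min, 8 of the 51 genes were lower and 10 higher on the relative scale, against 9.94% and 30.8% of the probe sets above the split. The 8 were Ppp1r10, Ppp4r3a, Ppp1r8, Ppp2r2a, Ppp6r3, Ppp2r2d, Ppp1cc and Ppp1r35. With simulated early steps of 0.8 log2 in either direction, 20 and 23 of 50 were found, and of 0.4 log2 1 and 3 of 50. The simulated noise had the spread of the deposited scale, so these rates do not carry over to the relative steps. Small early changes may have been missed with 3 arrays a time.

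Ppp1r8 encodes NIPP1, another nuclear PP1 partner. Its ratio went from 16.3 through 11.4, 11.1 and 4.56 to 4.69 in replicate 1, from 8.78 through 10.6, 10.97 and 4.92 to 2.16 in replicate 2, and from 11.9 through 11.7, 9.98 and 8.46 to 4.09 in replicate 3. Unlike Ppp1r10, it kept 92.3% of the 0 min ratio at 50 min and 29.2% ± 4.90 at 230 min. The slope was -0.49 ± 0.057 and the relative slope -0.17 (adjusted p = 0.00027). Ppp1r7, which encodes the conserved leucine-rich PP1 partner Sds22, had -0.24 ± 0.055. Ppp1r10 was steeper than Ppp1r7 by -0.51 ± 0.11 and Ppp1r8 by -0.24 ± 0.023.

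The myosin-targeting subunits include Ppp1r12a, the myosin phosphatase subunit MYPT1. Its slope was -0.39 ± 0.044 with 37.8% ± 7.06 left, faster than the reference (-0.075, adjusted p = 0.024), a call lost when any single replicate was left out (adjusted p of 0.068 to 0.092). The slopes of Ppp1r12b (-0.26 ± 0.041), Ppp1r12c (-0.25 ± 0.043) and Ppp1r16a (-0.28 ± 0.048) were shallower, and Ppp1r12a differed from the first pair by -0.13 ± 0.038 and -0.14 ± 0.029. Ppp1r12b had 7 probe sets, whose slopes ran from -0.26 to -0.096, and the 2 shallowest lay below the split. The ASPP genes, whose products bind p53 family proteins as well as PP1, were Ppp1r13b (-0.39 ± 0.049) and Ppp1r13l (-0.36 ± 0.040). Ppp1r13b was called faster (-0.074, adjusted p = 0.045), a call lost when any single replicate was left out (adjusted p of 0.063 to 0.29).

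Of 12 PP1 inhibitor genes, 6 lay above the split. Ppp1r11 (inhibitor 3) had -0.36 ± 0.066, Ppp1r2 (inhibitor 2) -0.28 ± 0.040 and Ppp1r14b -0.23 ± 0.054. Ppp1r14b, with a 0 min mean of 72.9, was called slower (0.082, adjusted p = 0.019, limma). That call was lost without replicate 1 or without replicate 3 (adjusted p = 0.18 and 0.23). The smallest slopes were those of Ppp1r14a (CPI-17, -0.17 ± 0.036), Ppp1r1b (DARPP-32, -0.14 ± 0.034) and Ppp1r1a (inhibitor 1, -0.14 ± 0.024), all 3 of them slower than the reference. Their 0 min means were 3.03, 2.53 and 2.45, close to the floor, and when the probe sets above the split were cut into 5 equal bins of level, the lowest bin had a median slope of -0.21 and the middle bin -0.29. The level was not adjusted for in these calls. Of the other PP1 regulatory genes above the split, Ppp1r18 (phostensin, an actin-binding protein) had -0.43 ± 0.062, Ppp1r35 -0.37 ± 0.057, Ppp1r37 -0.30 ± 0.042 and Ppp1r21 -0.27 ± 0.043. The Ppp1r18 call (relative slope of -0.12, adjusted p = 0.015) was lost without replicate 1 or without replicate 2 (adjusted p = 0.069 in both). Ppp1r9b (spinophilin, an actin-bound scaffold of PP1) had -0.25 ± 0.048 and was called slower (0.069, adjusted p = 0.042), a call lost without any single replicate (adjusted p of 0.082 to 0.16).

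**Figure D4:**
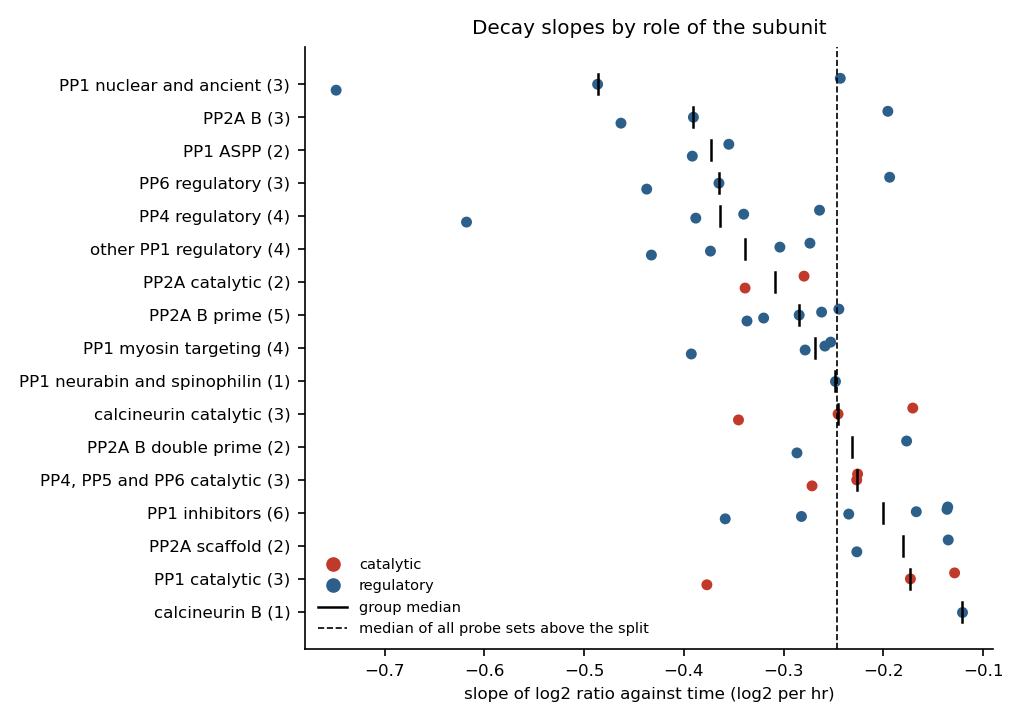
Slopes of the log2 ratio against time (log2 per hr, horizontal axis) of the 51 genes above the level split by role (rows, with the number of genes), red for catalytic and blue for regulatory subunits; short vertical lines are group medians, and the dashed line marks the median over all probe sets above the split. The nuclear PP1 partners and the PP4, PP6 and PP2A B subunits reach farthest to the left.

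Within role groups there were 65 pairs of genes above the split. In 42 of them the sign of the difference was the same in all 3 time courses, and in 24 the mean difference was over 2 SD. Pairs share genes and were not tested. The same shares among other pairs of transcripts above the split are not given, so the counts do not set these pairs apart. A difference between slopes from the same arrays does not depend on the reference.

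With the curves fitted here, a reliable half-life was obtained for 3 of the 51 genes, against 11.1% of all probe sets above the split. Besides Ppp1r10 and Ppp4r3a it was Ppp2r5b, at 170, 185 and 306 min (mean of 220 ± 74.9 min), reliable in 2 of 3. Division by the median above the split could give Ppp2r5b no half-life, because its relative slope was above 0 (0.055). The other genes did not meet the criteria in 2 time courses. The study itself reported reliable half-lives for many more transcripts than were obtained here, and the reason for the difference was not tested. In single simulated time courses with a true half-life of 45 min, 487 of 500 were reliable, with 180 min 334 and with 360 min 115. Their noise was independent between arrays and held no array-wide shifts. These shares therefore do not carry over to the genes described here.

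Catalytic subunits were compared with regulatory subunits as groups, as a description. The median slope of the 11 catalytic subunits was -0.25 log2 per hr (range of -0.38 to -0.13) and that of the 40 regulatory subunits above the split -0.28 (range of -0.75 to -0.12), so the catalytic range lay within the regulatory one. The catalytic median was the shallower by 0.021, 0.055 and 0.084 in the 3 time courses (mean of 0.053 ± 0.032, SD), and by 0.038 in the fit over all arrays. Against the 23 regulatory genes whose 0 min mean was at least the lowest catalytic one, the difference was 0.056, 0.12 and 0.11 (0.096 ± 0.036). This cut did not match the groups in level. Before the cut, the median 0 min mean was 23.6 for the catalytic genes and 10.7 for the 40 regulatory ones. That of the 23 kept is not given here, so these values do not show how large a gap was left. Over all probe sets, the brightest level bin had a median slope of -0.20, beside -0.27 and -0.29 in the bins below it. With 1 added to the ratios before the log, the difference over all 40 shrank to 0.0051. A sign-flip test over 3 time courses cannot give a two-sided p below 0.25, and none was run. Of the catalytic subunits 0 were faster (also 0 at an unadjusted p under 0.05, limma) and 6 slower on the relative scale, and of the regulatory subunits above the split 9 were faster and 13 slower (15.1% and 49.3% of all probe sets above the split). With the median-deviation reference the counts were 3 and 3, and 16 and 6. That no catalytic subunit was faster under the first reference is thus not so under the second, where Ppp1cc, Ppp2cb and Ppp3cc were.

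**Figure D5:**
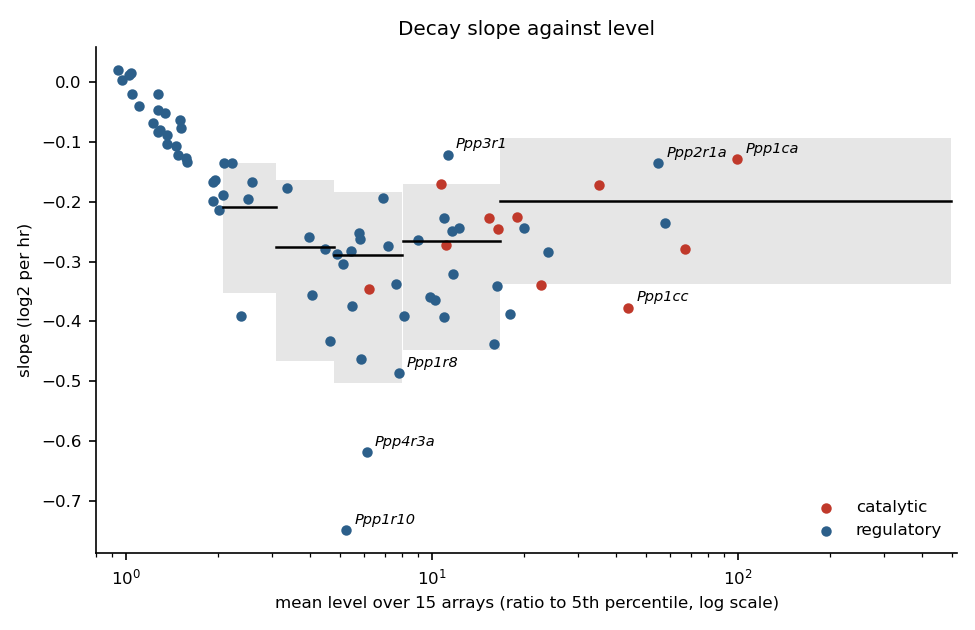
Slope of the log2 ratio against time (log2 per hr, vertical axis) against the geometric mean ratio over 15 arrays (horizontal axis, log scale) for all 76 genes, red for catalytic and blue for regulatory subunits; black lines are the median slopes of all probe sets in 5 bins of level above the split and grey boxes their 10th to 90th percentile. Slopes shrink towards 0 as the mean ratio nears 1, and 4 regulatory genes (Ppp1r10, Ppp4r3a, Ppp1r13b and Ppp4r1) and 2 catalytic ones (Ppp1cc and Ppp2cb) lie below the box of their bin.

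The remaining 25 genes, all regulatory, lay below the split with 0 min means of 0.88 to 2.69, and their slopes ran from -0.21 to 0.020 (median of -0.080). On the deposited scale 16 of them fell, where 75.8% of all probe sets did. So near the floor a ratio has little room to fall, and no decay was read from these genes. They held all 6 glycogen-targeting subunits (Ppp1r3a, Ppp1r3b, Ppp1r3c, Ppp1r3d, Ppp1r3f and Ppp1r3g), whose products bring PP1 to glycogen particles, among them Ppp1r3a (0 min mean of 1.08 ± 0.020), the form known from skeletal muscle. The others were Ppp1r14c, Ppp1r14d, Ppp1r14bl, Ppp1r1c, Ppp1r2-ps7, Ppp1r2-ps9, Ppp1r9a, Ppp1r16b, Ppp1r17, Ppp1r26, Ppp1r27, Ppp1r32, Ppp1r36, Ppp1r42, Ppp2r2c, Ppp3r2, Ppp4r1l-ps, Ppp4r3c-ps and Ppp4r4. The 4 genes with ps in their symbol are pseudogenes. Signal that a probe set may share with a near-identical copy of its gene was not tested.

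A list of 57 symbols of other genes that bind or control these phosphatases was read in the same way. Of these, 53 were matched, 45 lay above the split, and 44 of the 45 fell (96.1% of all probe sets above the split). Their median slope was -0.30 log2 per hr, beside -0.25 overall. On the relative scale 11 were faster and 14 slower, where 15.1% and 49.3% of all probe sets above the split were. With the median-deviation reference 19 and 5 were (25.1% and 23.1% overall), and with centring on all probe sets 30 and 0 (42.1% and 3.11% overall). The steepest were Cdca2 (-0.68 ± 0.052), which targets PP1 to chromatin as cells leave mitosis, Sgo1 (-0.64 ± 0.059), which brings PP2A to centromeres to protect cohesion, and Trp53bp2 (-0.58 ± 0.049), an ASPP protein. The shallowest were Chp1, a calcineurin B homologue (-0.075 ± 0.068, adjusted p = 0.32), Fam122b (-0.13 ± 0.044), whose family inhibits PP2A, and Ptpa (-0.15 ± 0.048), which activates it. Wdr82 and Tox4, which form a complex with the Ppp1r10 product and were picked out after their values were seen, had -0.48 ± 0.057 and -0.36 ± 0.056. On the relative scale Wdr82 was called faster (-0.167, adjusted p = 9.06e-05, limma) and Tox4 was not (-0.045, adjusted p = 0.20).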

How the data were processed

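The authors hybridised 300 ng of total RNA per sample and deposited each probe set as a ratio to the 5th percentile of its array, as linear values. Not given in the sources used here were the summary of probe sets, the background correction, the software and the genome build. The deposited table held no detection p-values for these arrays, and 0 columns were left out. Of 25175 probe sets, 21044 had a single symbol, 1492 several and 2639 none; all 76 genes described matched a mouse gene table of assembly GRCm38.p6 by gene number, used for names only. Another 4 probe sets with several phosphatase symbols were not used.

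Linear trends of log2 ratios (no pseudocount) were fitted to all 25175 probe sets with limma 3.58.1 in R 4.3.3, with replicate as a fixed block, moderated by eBayes and adjusted by Benjamini-Hochberg at 0.05. The study fitted each replicate as its own time course: deviations from the time point means correlated over 0.1 in 29 of 30 same-numbered array pairs (median of 0.362) and in 14 of 60 others (median of -0.216). Relative steps used time as a factor. Half-lives were fitted by least squares to linear ratios with scipy 1.17.1, numpy 2.4.6 and pandas 2.3.3 in Python 3.11.15 (figures with matplotlib 3.10.9), and reliable ones held in at least 2 of 3 time courses. On simulated data with all 25175 probe sets, the relative trend found 45 and 41 of 50 slopes of -0.25 and 0.25 log2 per hr and 3 and 5 of 50 of -0.1 and 0.1, with 6 false calls. The simulated noise had the spread of the deposited scale and was independent between arrays, and few probe sets were changed. Neither the rates found nor the false calls therefore carry over to the calls in these data. There were 3 arrays a time, which limits the precision.

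The genes, role groups and partner list were chosen with earlier results of these data known. Named with their tests were all catalytic subunits, both scaffolds, the 6 steepest and 6 shallowest regulatory genes on the relative scale, genes with a reliable half-life, genes called in role groups of under 5, and the 3 steepest and 3 shallowest partners; other genes were named to account for their role group after their values were seen. Alternatives were other references, a 0 min level filter, no block, a pseudocount of 1, other moderation, all probe sets of a gene, and leaving out times or replicates.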

Additional observations from a re-analysis of the deposited data

How the results depend on the processing

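The count of genes that fell was 50 as reported and 9 once arrays were divided by their 75th percentile, which is nearly the same scaling as the relative one. The 9 faster genes became 4 without the 230 min arrays, 5 to 6 with 1 replicate left out, 19 with the median-deviation reference and 29 with centring on all probe sets. The 19 slower genes became 12 with a pseudocount of 1, 12 without the 0 min and 11 without the 230 min arrays, 11 to 18 with 1 replicate left out, 9 with the median-deviation reference and 0 with centring on all probe sets. Without the replicate block, 12 genes were slower and 7 faster; the paired fit did not change the count that fell. The early count of 1 became 2 with the 0 min level filter and 0 to 1 with 1 replicate left out. The 8 genes lower late became 4 to 6 with 1 replicate left out and 25 with centring on all probe sets, and the 10 higher late became 3 to 10, 0 with centring on all probe sets and 4 with the median-deviation reference. Reliable half-lives numbered 7 with a straight line on log2 values and 0 without the 0 min arrays, and a curve with a constant floor gave half-lives with no interval. Division of arrays by their median above the split, which leaves only the fall beyond that median, gave 2, Ppp4r3a and Ppp6r3. The median slope difference of catalytic minus regulatory was 0.0051 with a pseudocount of 1, against 0.038. Apart from faster and slower counts under the 2 other references, shares over all probe sets are not given for these runs. A changed count may therefore be array-wide.

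With centring on all probe sets, 22 of the 31 genes with a relative slope above 0 turned negative, 10 of them called slower before; 1, Ppp1r12c, went from slower (0.064, adjusted p = 0.046) to faster (-0.072, adjusted p = 0.0499, limma). Among the genes named by rule these were Ppp1r9b (-0.067), Ppp2ca (-0.098), Ppp2r1b (-0.046), Ppp2r2b (-0.014), Ppp2r5b (-0.081), Ppp3cb (-0.064), Ppp4c (-0.046), Ppp5c (-0.045), Ppp6c (-0.090) and Ppp6r2 (-0.013); this is the shift of the reference itself. With the median-deviation reference Ppp2ca (-0.022), Ppp2r5b (-0.0046) and Ppp6c (-0.014) turned, and with a pseudocount of 1 Ppp2ca (-0.0070). With 1 replicate or the arrays that stood apart left out, Ppp2ca ranged from -0.012 to 0.099 and Ppp2cb from -0.062 to 0.044, and with 1 replicate left out Ppp3cc from -0.066 to 7.36e-05; of these, Ppp2ca was called slower without replicate 2 and without both such arrays. Of the 29 named subunit genes, Ppp1r8, Ppp2r2a and Ppp6r3 were no longer faster without the 230 min arrays (adjusted p = 0.22, 0.26 and 0.28, limma), while Ppp1r10 and Ppp4r3a were called faster in every alternative run. The median-deviation reference and the fits that left out both arrays that stood apart (7 faster and 21 slower genes) were chosen after seeing the data. Ratios near 1.00 limit what a dim probe set can show.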
